A study of Mus musculus with 18 samples.

Results

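Chromatin accessibility was compared between mouse macrophages that had been stimulated with bacterial lipopolysaccharide (LPS) and macrophages that had been left unstimulated. The members are the 3 LPS and 3 unstimulated ATAC-seq libraries that received neither drug nor cytokine, chosen by their labels, and they are 6 of the 18 libraries of the series. All 6 came from bone marrow of Il10-/- C57BL/6J mice, so the deletion of Il10 is shared by both groups and no wild-type macrophages were part of the comparison. The mice were male and 12 weeks old. Marrow of 3 mice was cultured for 6 days in medium conditioned by L929 cells, a fibroblast line that secretes the growth factor CSF-1, and each group had 3 libraries. The labels number the libraries of a group without saying which mouse a number stands for. The cells spent 12 h untreated and then 4 h with 50 ng/mL LPS, or with PBS alone, for 16 h in all. The other 12 libraries had been given (+)-JQ1, an inhibitor of BET proteins, or IL-10, with or without LPS. They enter the count filter, the scaling, the common estimate of spread, the classes of peak strength and 1 comparison near the end.

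LPS is a component of the outer membrane of Gram-negative bacteria. It is sensed by TLR4 together with CD14 and MD-2, and the receptor signals through 2 adaptor branches. MyD88 leads to the release of NF-kappaB and the activation of AP-1, and with them to inflammatory cytokines, whereas TRIF leads through IRF3 to type I interferon, which then acts back on the cell through its receptor. In macrophages most of the regulatory DNA is held open by PU.1, C/EBP and AP-1 factors before any stimulus, and the signal-dependent factors bind mainly to such sites or open new ones beside them. ATAC-seq reads these sites through a transposase that inserts adapters into exposed DNA. A peak is a region with many insertions, and its count rises when the region is exposed more often. Since each library pools many cells, more cells with an open site and a more open site in each cell cannot be told apart.

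Of 194284 peaks in the authors' union, 194230 had enough counts to be tested. An opened peak here is one that was higher with LPS and a closed peak one that was lower, at an adjusted p under 0.05 and a log2 fold change beyond 0.5 in the quasi-likelihood test of edgeR with Benjamini-Hochberg adjustment over every tested peak. The libraries held between 12020526 and 17586208 counts in the unstimulated group and between 16862774 and 23095535 in the LPS group. Counts per library are given below after TMM normalization, a scaling by the bulk of the peaks, and always in the order of replicates 1, 2 and 3. Over all tested peaks 11.7% opened and 10.2% closed, with a median log2 fold change of -0.03. That median became -0.26 under scaling by total counts in peaks and -0.01 with loess offsets, a scaling that follows peak strength, so the balance of small changes depends on the scaling. All 8 macrophage marker genes had a peak over the transcription start site (TSS), with summed counts of 2680, 3256 and 3941 in the unstimulated and 3975, 4055 and 3804 in the LPS libraries. No peak lay over the TSS of the T cell genes Cd3e, Cd3g, Cd4 and Cd8a, nor over that of the neutrophil genes Ly6g, Mpo and S100a9. The fibroblast gene Col1a2 and the erythroid genes Gata1 and Hbb-b1 had none either. Summed TSS counts of the other lists lay between 83 and 136 for T cell, 322 and 480 for B cell, 666 and 970 for neutrophil, 638 and 972 for dendritic cell, 891 and 1295 for fibroblast, 247 and 365 for epithelial and 383 and 578 for erythroid markers over the 6 libraries. The lists held 8 macrophage, 5 T cell, 4 B cell, 6 neutrophil, 4 dendritic cell, 4 fibroblast, 4 epithelial and 3 erythroid genes. The T cell sum is that of Lck alone and the erythroid sum that of Klf1 alone. Sums are therefore not comparable between lists. Open promoters are common outside the cell type that uses a gene, and the part of other cells in any result below was not tested.

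The gene deleted in all samples, Il10, encodes the cytokine that restrains macrophage activation. Of 20 peaks within 25 kb of its TSS, 11 opened and none closed. A peak at chr1:132911721-132913275, 3924 bp from the TSS, read 84.2, 97.0 and 117 in the unstimulated and 192, 231 and 232 in the LPS libraries, a log2 fold change of 1.12 (SE 0.16, edgeR adjusted p = 1.2e-08). The peak in the promoter class read 65.4, 106 and 126 against 63.9, 106 and 85.3 and was not called. All 6 libraries had counts in the 3 peaks over the gene body, and the largest of them read 150, 239 and 238 without LPS and 260, 310 and 241 with it. Which part of the gene the deletion removes is not given in the sources used here, so these counts do not check the genotype.

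The sequences that carry the comparison are those that signal-dependent and lineage factors bind. For each of 5 motifs, 160 bases of the mm9 plus strand are shown from the distal peak that rose most (the first 3) or fell most (the last 2) among those that hold the motif in their central 500 bases and lie outside exons. Capitals mark the motif. They are the kappaB site of NF-kappaB dimers at chr11:83479051-83479210, 2986 bp from the TSS of Ccl4, the interferon-response or IRF site (ISRE/IRF) at chr6:15633625-15633784 36997 bp from the TSS of Mdfic, the AP-1 site (TRE) at chr3:142187246-142187405 near Gbp7, the PU.1 site at chr4:144523159-144523318 near Dhrs3, and the E-box of MITF and TFE factors at chr17:84575406-84575565 near Zfp36l2. The bases come from the reference genome.
Ccl4, opened, kappaB: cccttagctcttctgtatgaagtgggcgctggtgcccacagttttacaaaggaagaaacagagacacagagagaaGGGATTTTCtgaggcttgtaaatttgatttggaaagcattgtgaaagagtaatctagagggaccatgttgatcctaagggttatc
Mdfic, opened, ISRE/IRF: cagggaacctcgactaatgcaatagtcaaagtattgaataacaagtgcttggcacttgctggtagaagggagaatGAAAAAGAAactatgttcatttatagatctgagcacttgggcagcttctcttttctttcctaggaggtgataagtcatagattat
Gbp7, opened, AP-1 TRE: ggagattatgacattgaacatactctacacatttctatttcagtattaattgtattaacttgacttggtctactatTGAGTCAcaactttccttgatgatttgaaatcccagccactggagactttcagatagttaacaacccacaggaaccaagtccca
Dhrs3, closed, PU.1: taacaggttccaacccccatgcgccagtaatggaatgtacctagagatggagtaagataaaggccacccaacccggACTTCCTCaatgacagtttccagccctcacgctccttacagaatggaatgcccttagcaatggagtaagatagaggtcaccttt
Zfp36l2, closed, E-box: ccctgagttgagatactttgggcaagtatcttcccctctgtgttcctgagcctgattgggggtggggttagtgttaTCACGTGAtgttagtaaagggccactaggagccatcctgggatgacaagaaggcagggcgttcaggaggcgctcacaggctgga

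These 5 peaks were chosen for the size of their change, so their values describe them and test nothing. The intergenic Ccl4 peak with the kappaB site had 61.6, 52.6 and 49.4 counts in the unstimulated and 930, 884 and 1090 in the LPS libraries. Ccl4 is a chemokine for monocytes and T cells. The intergenic peak 36997 bp from Mdfic, with the ISRE/IRF site, read 28.9, 22.7 and 12.4 against 357, 289 and 323. The stretch near Gbp7, a GTPase induced by interferon, holds an ISRE/IRF match beside its TRE. Among the closed peaks, the one 40399 bp from Dhrs3, a retinal reductase, read 84.2, 84.6 and 125 without LPS and 25.0, 10.3 and 29.2 with it. The E-box peak 11846 bp from Zfp36l2 fell from 119, 139 and 167 to 44.9, 42.2 and 50.5, and the printed stretch also holds a C/EBP match. In none of the 5 peaks did the groups overlap.

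The largest rises were at genes of secreted inflammatory mediators and of the interferon response. Ccl5 encodes the chemokine RANTES. Its exonic peak at chr11:83338123-83339546 read 28.9, 19.6 and 10.3 in the unstimulated and 891, 619 and 678 in the LPS libraries (log2 fold change 5.25, SE 0.24, edgeR adjusted p = 7e-37). The Ccl5 promoter, at chr11:83343409-83344339, went from 35.2, 22.7 and 16.5 to 799, 658 and 737 (log2 fold change 4.91, SE 0.20, edgeR adjusted p = 6.1e-40). All but 1 of the 14 peaks within 25 kb of this gene opened. A second locus with rises of this size was an intron of Mrpl39, a gene of the mitochondrial ribosome, where the peak at chr16:84721267-84721945 read 18.9, 12.4 and 10.3 against 565, 474 and 427 (5.16, SE 0.25, edgeR adjusted p = 5.2e-34). Another intronic Mrpl39 peak, at chr16:84719166-84720026, read 13.8, 5.16 and 12.4 against 230, 242 and 203.

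Il1b encodes interleukin-1 beta, which is cleaved and released after inflammasome activation. A peak 8038 bp from its TSS, at chr2:129188320-129189354, had 12.6, 3.10 and 12.4 counts without LPS and 332, 305 and 289 with it (log2 fold change 5.06, SE 0.27, edgeR adjusted p = 2e-31). The authors' table puts this peak in the promoter class. The exonic Il1b peak at chr2:129189794-129191003 went from 28.9, 19.6 and 9.26 to 585, 538 and 485, and the peak over the TSS from 107, 105 and 109 to 736, 706 and 554. The sites away from the TSS started at 3.10 to 28.9 counts while the TSS was already at 105 to 109, and in each of the 3 peaks every LPS library was above every unstimulated one.

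Interferon-response genes made up the rest of the 10 largest rises. The intergenic peak 5740 bp from Gbp7, at chr3:142187182-142187943, rose from 28.9, 22.7 and 11.3 to 661, 526 and 537 (4.80, SE 0.22, edgeR adjusted p = 5.7e-36). Ifit3, whose protein belongs to a family that binds viral RNA or its partners, had a peak 3506 bp from the TSS with 17.6, 25.8 and 16.5 counts against 460, 469 and 478. A peak 12598 bp from Ifit1 read 12.6, 26.8 and 9.26 against 337, 342 and 338. Last came an exonic peak of Art3 at chr5:92775889-92776562, 1690 bp from the TSS of Cxcl10, the interferon-induced chemokine that attracts T cells, with 12.6, 12.4 and 11.3 counts against 258, 211 and 278. The 3 LPS libraries lay close together at the Ifit peaks, whereas at Ccl5 replicate 1 was highest.

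**Figure D1:**
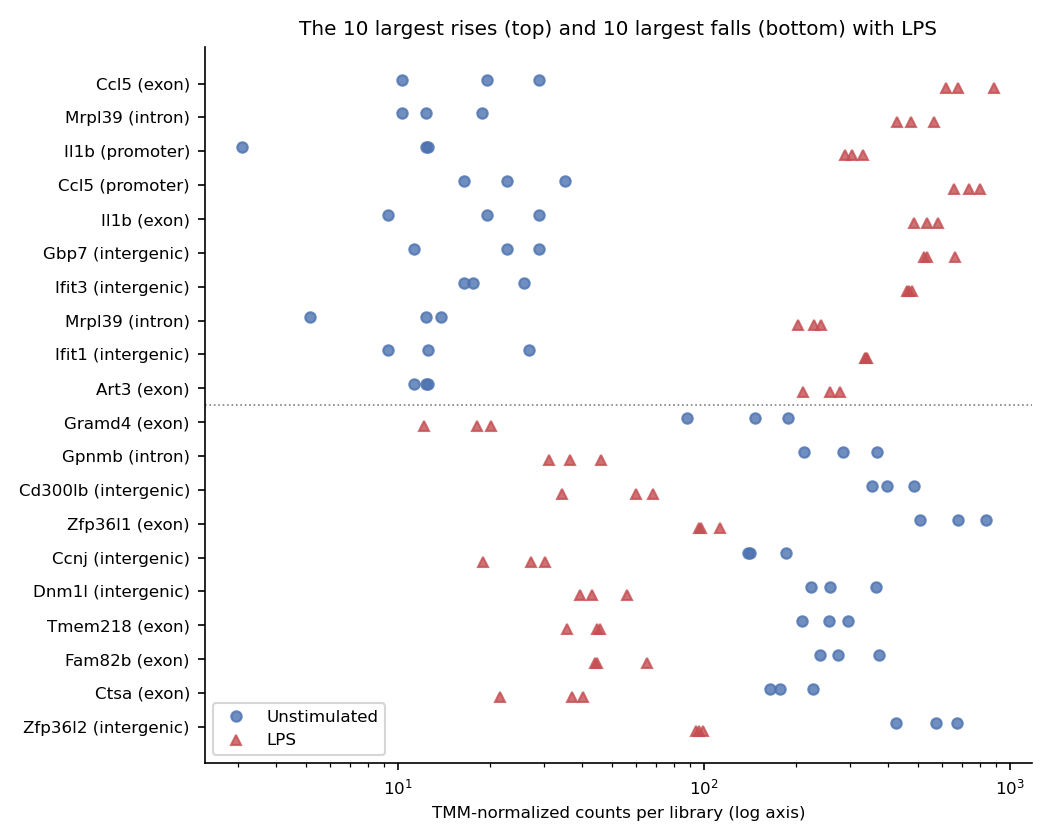
TMM-normalized counts per library (log axis) at the 10 most opened (above the dotted line) and 10 most closed peaks (below it), circles for the 3 unstimulated and triangles for the 3 LPS libraries. The groups do not overlap at any of the 20 peaks, and the closed peaks kept 12.2 to 113 counts with LPS whereas the opened ones started at 3.10 to 35.2.

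The largest falls were smaller than the largest rises. Of these 10 peaks, 2 lay at genes of lysosomal proteins (Gpnmb and Ctsa), 2 at mRNA decay genes (Zfp36l1 and Zfp36l2) and 6 elsewhere. An exonic peak of Gramd4 at chr15:85960827-85961900 read 88.0, 189 and 147 in the unstimulated and 18.1, 12.2 and 20.2 in the LPS libraries (log2 fold change -3.08, SE 0.25, edgeR adjusted p = 3.3e-19). Gpnmb encodes a glycoprotein of lysosomes that marks lipid-laden macrophages. An intronic peak, at chr6:49016186-49019726, went from 212, 286 and 369 to 31.1, 36.6 and 46.0 (-2.95, SE 0.20, edgeR adjusted p = 8.4e-25). Near Cd300lb, an activating receptor of myeloid cells, the peak at chr11:114780520-114783498 went from 355, 397 and 486 to 34.5, 60.0 and 68.4 (-2.95, SE 0.18, edgeR adjusted p = 1.9e-27). In both of these peaks replicate 3 had the highest count in each group.

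Zfp36l1 and Zfp36l2 encode proteins that bind AU-rich elements and promote mRNA decay, and both closed. The exonic Zfp36l1 peak at chr12:81204571-81209294 fell from 509, 676 and 834 to 113, 97.6 and 96.5 (-2.71, SE 0.17, edgeR adjusted p = 8.4e-27), and the Zfp36l2 peak 9122 bp from its TSS from 424, 574 and 671 to 99.3, 96.6 and 94.2 (-2.52, SE 0.16, edgeR adjusted p = 4.1e-27). Ctsa encodes cathepsin A, a protective protein of lysosomal enzymes, and its exonic peak went from 165, 177 and 228 to 37.1, 21.6 and 40.4 (-2.53, SE 0.21, edgeR adjusted p = 4.4e-19). The remaining falls were an intergenic peak 86632 bp from Ccnj with 140, 142 and 186 against 19.0, 27.2 and 30.3 counts, an intergenic peak 53249 bp from Dnm1l, and exonic peaks of Tmem218 and Fam82b, each with a log2 fold change between -2.63 and -2.54. Levels in the 3 LPS libraries were nearly equal at the Zfp36l1 and Zfp36l2 peaks, and most of the spread there was among the unstimulated libraries, in which replicate 1 was lowest.

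Site types differed in how often they changed and in which direction. Among 36666 promoter peaks, defined by the authors as those from 1000 bases before to 100 bases after the start of any transcript, 14.3% opened and 6.71% closed. Of 157564 distal peaks, 11.1% opened and 11.0% closed. Opened peaks were therefore 68.0% of the called promoter peaks and 50.3% of the called distal peaks. With loess offsets the promoter value was 48.1% and with total counts 28.7%, against 54.7% and 24.8% for distal peaks, so the excess of opened over closed promoters was seen with TMM, and also with the size factors of DESeq2 (5727 opened and 2265 closed), and not with loess offsets, with total counts or when promoter and distal peaks were fitted separately (2599 opened and 4522 closed). The number of opened promoter peaks, 5237, also depended on single libraries. It was 3458 without replicate 1 of the unstimulated group and 8776 without replicate 3 of that group.

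Within the distal class, exonic peaks opened in 12.1% and closed in 12.4% of cases, intronic peaks in 9.45% and 11.1%, and intergenic peaks in 12.7% and 10.3%. Closing became more frequent with distance from a coding TSS. It was 5.71% from 1 to 5 kb, 10.1% from 5 to 25 kb, 12.3% from 25 to 100 kb and 15.2% beyond 100 kb, whereas opening stayed between 9.12% and 11.7% in these classes. The order of the closed shares was the same with loess offsets, from 4.55% at 1 to 5 kb to 11.5% beyond 100 kb. With TMM width mattered more for opening, since 26.3% of distal peaks of 3 kb and over opened against 6.70% of those under 1 kb. The closed shares of these classes were 11.9% and 9.71%. With loess offsets 16.8% of the widest class opened and 20.7% closed, against 8.44% and 5.23% of the narrowest. There the closed share changed more with width than the opened share. Wide peaks hold more reads, and the part of depth in these shares was not tested.

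Opening rose with peak strength, taken as the mean count over all 18 libraries and divided into 5 equal classes of all tested peaks. Promoter peaks numbered 2995 in the weakest and 16497 in the strongest class. LPS libraries enter this mean, so a rise itself adds to the strength of a peak, and weak peaks are harder to call. The part of either in these shares was not tested. From the weakest to the strongest class, the opened share went from 2.10% to 23.6% of promoter peaks and from 2.91% to 28.0% of distal peaks. The closed share of promoter peaks was 9.62% in the weakest and 3.93% in the strongest class, and with loess offsets it ran the other way, from 4.27% to 8.68%. With these offsets, which by construction centre the changes at each strength, 7.30% of the strongest promoter peaks opened and 8.68% closed, and 17.2% and 15.3% of the strongest distal ones. The same held for promoters rich in CpG. At a CpG ratio of 0.6 and over, 21.1% opened and 0.815% closed with TMM, and 1.74% and 1.5% with loess offsets. CpG-poor promoters, with a ratio under 0.2, opened in 12.2% of cases with TMM, in 10.4% with loess offsets and in 7.85% with total counts, and closed in 9.45%, 9.84% and 19.9%. The small rises of strong CpG-island promoters thus rested on the scaling.

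**Figure D2:**
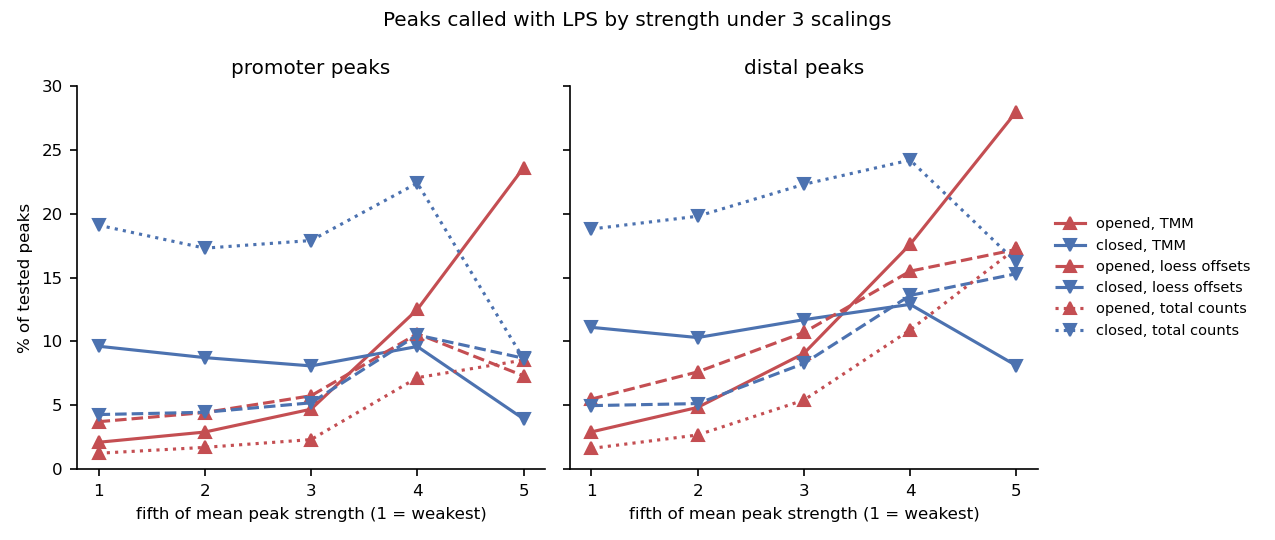
Share of tested promoter peaks (left) and distal peaks (right) that opened (upward triangles) or closed (downward triangles) in 5 classes of mean peak strength, with TMM (solid), loess offsets (dashed) and total counts (dotted). With TMM 28.0% of the strongest distal peaks opened, against 17.2% with loess offsets and 17.3% with total counts.

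Peaks within 25 kb of a protein-coding TSS opened in 12.0% and closed in 7.96% of cases, and these shares are the background for the gene lists that follow. Of these 109103 peaks, 13104 opened and 8687 closed with TMM. With loess offsets 10049 opened and 7897 closed, and with total counts 6753 and 17939, so the background itself changed sides with total counts. Within that window 9188 of 18503 coding genes had an opened peak, 7408 had a closed one, 3020 had both and 4927 had neither. Genes with 10 or more opened peaks numbered 262 and those with 10 or more closed peaks 21. The genes with the most opened peaks were Trim30c, with 26 of 30, Cmpk2 with 23 of 24, Oasl1 with 23 of 25, Rsad2 with 22 of 23, Gbp7 with 22 of 22, D14Ertd668e with 22 of 26, and Slfn9 and Il1a with 20 of 21 each. Most of these are induced by interferon. Cmpk2 and Rsad2 are neighbours and share peaks, and so do other clustered genes (Cxcl9, Cxcl10 and Cxcl11, Cxcl3 and Cxcl5, Ccl3 and Ccl4, the Gbp genes, the Ifit genes, Fpr1 and Fpr2, Apoe and Apoc2). The genes of a list are therefore not independent. The most closed peaks were at Gm12353 (15 of 20), Gm10521 (13 of 16), 1700029H14Rik (12 of 17), Engase (12 of 19), the selenium carrier Sepp1 (11 of 20), Mxd4, a repressor that antagonizes Myc (11 of 18), Gpnmb (11 of 22) and Ucp2, a mitochondrial carrier (11 of 17).

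Among 25 inflammatory cytokine genes, 183 of 358 peaks opened (51.1%) and 6 closed (1.68%), with a median log2 fold change of 0.70. Opened peaks were found at 22 of the genes. Il12b, the p40 subunit shared by interleukins 12 and 23, opened at 13 of 18 peaks. Its peak at chr11:44203227-44204217, 9843 bp from the TSS, read 30.2, 44.4 and 59.7 in the unstimulated and 596, 553 and 545 in the LPS libraries (log2 fold change 3.63, SE 0.18, edgeR adjusted p = 9.1e-34), while the promoter peak went from 133, 136 and 158 to 329, 270 and 282. Il6, the inducer of acute-phase proteins, had a peak 9734 bp from the TSS with 25.1, 16.5 and 23.7 counts against 241, 169 and 177, and a promoter peak with 161, 216 and 240 against 805, 595 and 686. For Il1a, whose precursor acts as an alarm signal of damaged cells, 20 of 21 peaks opened. Tnf, an early product of LPS-stimulated macrophages, opened at 9 of 16 peaks. Lif and Osm had no called peak, and Vegfa, the endothelial growth factor, was the exception of the list, with 6 closed and no opened peak out of 12.

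Chemokine genes opened at 102 of 232 peaks (44.0%) and closed at 4 (1.72%), with a median of 0.58, and 19 of the 20 genes had an opened peak. The Cxcl10 promoter read 132, 132 and 148 in the unstimulated and 701, 702 and 674 in the LPS libraries (log2 fold change 2.33, SE 0.14, edgeR adjusted p = 4.2e-27). The promoter of Cxcl9, whose product binds the same receptor, was much weaker, with 21.4, 12.4 and 17.5 against 45.7, 30 and 76.3, and that of Cxcl11 read 50.3, 20.6 and 38.1 against 43.2, 48.8 and 26.9 and was not called. Cxcl3 and Cxcl5, which attract neutrophils, each had 1 opened and 2 closed peaks, and Cxcl14 had no called peak. The 2 closed peaks of Cxcl3 and of Cxcl5 are the same.

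Among the signalling genes upstream of these products, opening was uneven, and the receptor and several genes directly below it opened little or not at all. LPS receptor and adaptor genes opened at 113 of 370 peaks (30.5%), closed at 6 (1.62%) and had a median of 0.35. Tlr4 had 3 closed and no opened peak out of 12. Its intronic peak at chr4:66509085-66514217 read 279, 335 and 388 without LPS and 202, 188 and 166 with it (log2 fold change -0.85, SE 0.14, edgeR adjusted p = 9.3e-07), and its promoter was not called, with 334, 403 and 627 against 504, 498 and 468. The kinase gene Irak4 was closed at 2 of 11 peaks with none opened. Myd88, Tirap and Traf6 opened at 1 of 15, 1 of 19 and 1 of 13 peaks. The adaptor genes Ticam1 and Ticam2 opened at 5 of 22 and 5 of 17, and the kinase gene Irak2 at 10 of 16. In contrast the cytosolic sensors Nod2 and Nlrp3 opened at 12 of 18 and 15 of 22 peaks, and the intronic Nod1 peak read 31.4, 24.8 and 16.5 against 206, 196 and 182. Tlr7 and Tlr8 opened at 6 of 14 and 3 of 10 peaks. Both are on chromosome X, whose peaks shifted as a whole: 16.7% of them opened, and their median log2 difference between same-numbered libraries was 0.33, 0.18 and -0.0 for replicates 1, 2 and 3 against -0.03, -0.02 and -0.01 for autosomes. The part of this shift in X-linked values was not tested.

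NF-kappaB subunits and their inhibitors opened at 119 of 290 peaks (41.0%), closed at 2 (0.69%), and had opened peaks at all 18 genes. Tnfaip3, the ubiquitin-editing inhibitor A20, opened at 15 of 22 peaks. An intergenic peak 17642 bp from its TSS rose from 41.5, 56.8 and 46.3 to 582, 514 and 476 (log2 fold change 3.43, SE 0.19, edgeR adjusted p = 1.1e-29), and the promoter from 479, 499 and 693 to 923, 958 and 948. Nfkbia encodes the inhibitor that holds NF-kappaB in the cytoplasm. A peak 8071 bp from it read 81.7, 107 and 141 against 922, 958 and 947, whereas its promoter, already at 479, 534 and 705, reached 825, 743 and 803 and stayed under the fold limit. Traf1, an adaptor of TNF receptors, opened at 12 of 13 peaks and Nfkb1 at 9 of 12.

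AP-1 and ATF genes were closer to the background, with 48 of 256 peaks opened (18.8%), 9 closed (3.52%) and a median of 0.24. With total counts the list had 20 opened and 19 closed peaks and with loess offsets 27 and 13. The rises were at Atf3, a repressor induced by stress, with 10 of 20 peaks opened, and at Batf with 8 of 19. The intronic Atf3 peak read 217, 253 and 270 against 583, 554 and 674. Jun had 2 closed and no opened peak out of 7, and a peak 4817 bp from its TSS read 66.6, 114 and 150 without LPS and 40.6, 72.2 and 58.3 with it. In that peak the groups overlapped, since LPS replicate 2 was above unstimulated replicate 1. The exonic Fos peak fell from 350, 523 and 487 to 259, 264 and 273, and the Fos promoter was not called.

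IRF and STAT genes opened at 80 of 229 peaks (34.9%) and closed at 5 (2.18%). Irf1, an early interferon-response activator, opened at 12 of 17 peaks. Its exonic peak at chr11:53591019-53597786 read 367, 391 and 426 against 2270, 2270 and 2420 (log2 fold change 2.55, SE 0.14, edgeR adjusted p = 2.1e-30). Irf7, which amplifies type I interferon production, had a peak with 46.5, 55.7 and 34.0 counts against 260, 245 and 293. Irf3, which is activated by phosphorylation and not by induction, opened at 1 of 16 peaks, and Irf4 closed at 1 of 9.

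The targets of these factors showed the highest shares of all lists. Of 468 peaks at 31 interferon-stimulated genes, 306 opened (65.4%) and 4 closed (0.855%), with a median of 1.07, and every gene had an opened peak. At the 19 interferon-inducible GTPase genes, 144 of 199 peaks opened (72.4%), none closed and the median was 1.19. Summed over the list, the interferon-stimulated genes had 37231, 38100 and 40473 counts without LPS and 95121, 93381 and 95097 with it, and the GTPase genes 12541, 12847 and 12957 against 32677, 33598 and 34292. These are ratios of 2.45 and 2.62, beside 1.17 for all tested peaks. Rsad2 encodes viperin, an antiviral enzyme. A peak 16887 bp from its TSS rose from 61.6, 80.5 and 88.5 to 1280, 1010 and 1160 (log2 fold change 3.89, SE 0.17, edgeR adjusted p = 9.2e-39). All 16 peaks of Oas2, a sensor of double-stranded RNA, opened. Guanylate-binding proteins attack vacuoles that hold microbes, and the promoters of Gbp2 and Gbp5 read 229, 317 and 290 against 1220, 1150 and 1200, and 163, 255 and 271 against 827, 874 and 870. Gbp11, with 3 peaks, was the GTPase gene with none opened.

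Genes of effector enzymes opened at 122 of 290 peaks (42.1%) and closed at 11 (3.79%). Irg1, which makes the antibacterial metabolite itaconate, opened at 20 of 23 peaks. Its strongest rise was 35.2, 37.2 and 49.4 against 680, 507 and 559 (log2 fold change 3.83, SE 0.19, edgeR adjusted p = 5.2e-34), and its promoter went from 161, 174 and 196 to 1180, 1190 and 1220. The prostaglandin synthase Ptgs2 and the nitric oxide synthase Nos2 opened at 7 of 12 and 5 of 8 peaks. Ch25h makes 25-hydroxycholesterol and is an interferon target, yet 4 of its 11 peaks closed and 2 opened, and an intergenic peak 15412 bp away read 302, 302 and 429 against 87.2, 140 and 103. Hmox1 and Arg2 had 2 closed peaks each and none opened.

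Costimulatory and checkpoint ligands opened at 111 of 239 peaks (46.4%), with none closed and opened peaks at all 15 genes. Cd40, which receives T cell help, had an intergenic peak with 13.8, 23.7 and 10.3 counts against 322, 272 and 322 (log2 fold change 4.24, SE 0.25, edgeR adjusted p = 2.6e-28) and a promoter with 256, 258 and 357 against 1290, 1160 and 1240. The Cd274 promoter, of the checkpoint ligand PD-L1, read 167, 207 and 260 against 767, 694 and 710. MHC class II genes changed less, with 21 of 95 peaks opened (22.1%) and 1 closed (1.05%). Ciita, the master activator of class II, opened at 1 of 19 peaks.

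Feedback regulators of signalling and mRNA stability went in both directions, gene by gene. Over 23 genes, 93 of 358 peaks opened (26%) and 26 closed (7.26%), 12 genes had opened peaks only, 8 closed peaks only and 3 both. Socs1 and Socs3, which inhibit JAK kinases, opened at 8 of 14 and 17 of 27 peaks, and the Socs1 peak 3761 bp from the TSS read 168, 182 and 168 against 953, 929 and 1090. The phosphatase gene Dusp2 opened at 13 of 19 peaks. Zfp36l1 and Zfp36l2 closed at 5 of 13 and 5 of 18, Dusp10 at 3 of 7 and Rgs2 at 3 of 12, none with an opened peak. Their relative Zfp36, tristetraprolin, had 1 of each.

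**Figure D3:**
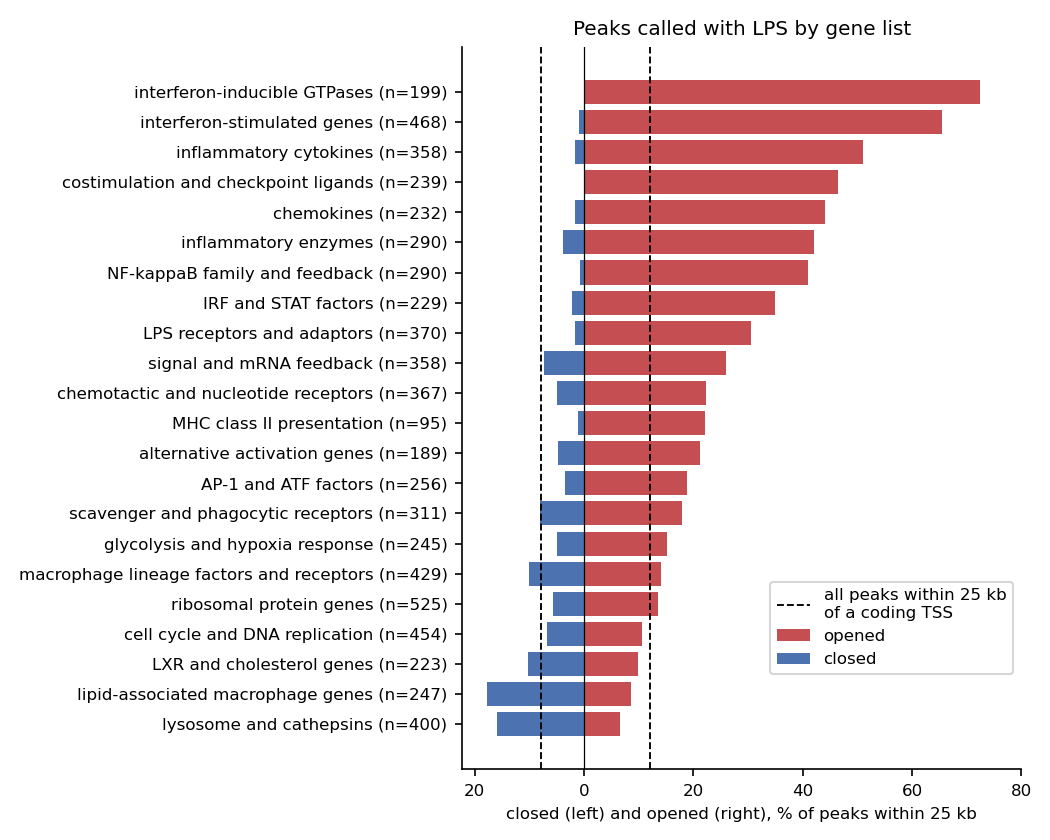
Percent of peaks within 25 kb of the genes of each list that opened (right of 0) or closed (left of 0) with LPS, with the number of peaks of the list in brackets and dashed lines at 12.0% and 7.96% for all peaks within 25 kb of a coding TSS. Interferon and cytokine lists lie far to the right of the opened line, and the lysosome and lipid-associated lists pass the closed line.

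Of the lists, those of lysosomal and lipid-associated genes had the highest closed shares within 25 kb. Of 400 peaks at 27 lysosomal genes, 64 closed (16.0%) and 26 opened (6.50%), with a median of -0.13. Within 100 kb of the same genes 12.0% of 1224 peaks closed and 12.8% opened, and without unstimulated replicate 3 the 25 kb window held 48 opened and 59 closed peaks. With loess offsets 17 opened and 71 closed, and with total counts 10 and 102. Closed peaks were found at 22 genes, at 18 of them with no opened peak. Summed over the list the groups overlapped, with 56238, 62310 and 73051 counts without LPS and 64504, 63126 and 61774 with it. Ctsd, the aspartic protease cathepsin D, closed at 6 of 16 peaks. A wide peak at chr7:149558390-149563637 read 1200, 1240 and 1630 against 305, 249 and 295 (log2 fold change -2.26, SE 0.14, edgeR adjusted p = 2.0e-26), while the Ctsd promoter read 386, 429 and 492 against 482, 434 and 420. Tfeb, the transcription factor of lysosome biogenesis, closed at 5 of 15 peaks, and the calcium channel gene Mcoln1 at 4 of 11. The most opened peaks were at Lamp2 (6 of 15, on chromosome X), Npc2 (6 of 18), Tfec (4 of 17) and Lipa (3 of 14). The leading Lipa peak, with 96.8, 131 and 129 against 589, 563 and 681 counts, lies 2221 bp from the TSS of Ifit2.

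At 18 genes of lipid-associated macrophages, a state of macrophages in fat tissue and lesions, 44 of 247 peaks closed (17.8%) and 21 opened (8.5%). Gpnmb closed at 11 of 22 peaks, its promoter included, which read 283, 374 and 489 against 186, 183 and 215 (log2 fold change -0.98, SE 0.15, edgeR adjusted p = 9.1e-08). Trem2, a lipid receptor, closed at 4 of 15 peaks and Lgals3, galectin 3, at 6 of 16. A peak of the promoter class 283 bp from the TSS of the neighbouring Treml1 read 431, 344 and 445 against 116, 143 and 125, whereas the peak at its own TSS read 264, 283 and 355 against 286, 323 and 252. Pparg, the lipid-sensing nuclear receptor, closed at 3 of 14 peaks. The scavenger receptors Msr1 and Olr1 and the lipoprotein lipase Lpl went the other way, with 5 of 19, 3 of 10 and 3 of 4 peaks opened and none closed. Lpl had no opened peak with loess offsets and 1 with total counts, and Msr1 had 3 and 2.

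Cholesterol genes split between members. Over 18 genes, 22 of 223 peaks opened (9.87%) and 23 closed (10.3%), both near the background. Apoe, the apolipoprotein of cholesterol efflux, closed at 6 of 16 peaks, and its promoter fell from 228, 293 and 372 to 124, 122 and 103 (log2 fold change -1.35, SE 0.16, edgeR adjusted p = 1.1e-11). Mylip, a ubiquitin ligase, closed at 4 of 6. Apoe, its neighbour Apoc2 and Mylip are targets of the oxysterol receptor LXR, and its partner Rxra closed at 6 of 10. Apoe and Apoc2 share closed peaks, so they stand for 1 locus. In contrast Srebf2, the activator of cholesterol synthesis, opened at 4 of 22 peaks and Nr1h3, which encodes LXR alpha, at 2 of 22, with none closed at either. Srebf1 and Scd1 of the same list had no called peak. Sqle, a synthesis gene, closed at 2 of 16. The LXR target Abca1 closed at 1 of 11 peaks near its TSS, and a run of 13 closed peaks lay over the gene at chr4:53050993-53115233.

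Macrophage lineage genes, with 60 of 429 peaks opened (14.0%) and 43 closed (10.0%), and a median of 0.01, also divided by member, and with loess offsets the counts were 30 and 46. Cebpa and Tgfbr1 closed at 6 of 23 and 6 of 20 peaks. Spi1, which encodes PU.1, and Cebpb, the member of its family induced in inflammation, opened at 8 of 12 and 5 of 15 with none closed. With loess offsets and with total counts these were 2 and 2 opened peaks at Spi1 and 1 and 2 at Cebpb. Scavenger and phagocytic receptor genes opened at 56 of 311 peaks (18%) and closed at 25 (8.04%). Gas6, the bridge between apoptotic cells and the receptors Mertk and Axl, closed at 11 of 18 peaks and Stab1 at 5 of 12. The Fc receptor genes Fcgr1, Fcgr2b and Fcgr4 opened at 6 of 15, 9 of 23 and 4 of 23 with none closed, and with total counts at 2, 5 and 2. Fcgr3 had 1 opened and 2 closed peaks out of 13.

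Among chemotactic and nucleotide receptors, 82 of 367 peaks opened (22.3%) and 18 closed (4.90%). Fpr1 and Fpr2, receptors of bacterial formyl peptides, share a locus and opened at 19 of 24 and 19 of 23 peaks, and Ccr7, which guides cells to lymph nodes, at 7 of 16. Cxcr4, the receptor that holds cells in bone marrow, closed at 4 of 12. Its peak at chr1:130479174-130483400 read 258, 316 and 370 against 87.2, 84.4 and 96.5 (log2 fold change -1.82, SE 0.16, edgeR adjusted p = 2.2e-17). Alternative activation genes opened at 40 of 189 peaks (21.2%) and closed at 9 (4.76%), and the closed ones were at Arg1, Retnla, Chi3l3, Chi3l4, Irf4 and Clec10a. Chi3l3 and Chi3l4 are neighbours, and the 4 closed peaks of each are the same.

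The housekeeping lists stayed near the background, and like the background they had more closed than opened peaks with total counts. Glycolysis and hypoxia genes opened at 37 of 245 peaks (15.1%) and closed at 12 (4.90%), and with total counts at 20 and 32. Hif1a, the factor that drives glycolysis after LPS, opened at 5 of 21. Cell cycle genes opened at 48 of 454 peaks (10.6%) and closed at 31 (6.83%), with loess offsets at 36 and 33 and with total counts at 20 and 77. The replication helicase genes Mcm2 and Mcm7 closed at 4 of 16 and 4 of 21, and Ccnd2 opened at 10 of 16. Ribosomal protein genes opened at 71 of 525 peaks (13.5%) and closed at 30 (5.71%), with loess offsets at 40 and 36 and with total counts at 26 and 75.

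Where a gene had both a strongly changed peak and a promoter peak, the promoter usually changed less. Among 97 genes named for an opened peak, the promoter opened at 53 and was not called at 44, with median log2 fold changes of 1.98 for the named peak and 0.58 for the promoter. Among 42 genes named for a closed peak, the promoter closed at 9 and was not called at 33, with medians of -1.15 and -0.0. No promoter was called in the other direction. The named peak was chosen for its size and is larger by construction, and it was the promoter itself at 5 opened genes and 1 closed gene. Csf3r, the receptor of G-CSF, is an example of a distal change alone, with 76.7, 84.6 and 124 against 499, 411 and 431 at 20838 bp from the TSS and 185, 214 and 223 against 238, 195 and 212 at the promoter.

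Some loci changed over long stretches. A run is a series of neighbouring peaks that were all called in the same direction with none uncalled between them. Runs of 5 or more peaks numbered 411 among opened and 275 among closed peaks. The longest opened run held 92 peaks over 266.4 kb at chr2:68699125-68965505, across Lass6, a ceramide synthase gene, and Nostrin, a regulator of nitric oxide synthase, and 70 of its peaks were intronic. Its summed counts rose from 7401, 7358 and 7677 to 22462, 24332 and 22457, a ratio of 3.09, and log2 fold changes of single peaks lay between 0.58 and 2.67. Next came Rapgef2 with 44 peaks, Ifih1 and Fap with 42, Fndc3a with 39, Rnf213 with 34 and Il15 with 32. Ifih1 encodes the RNA sensor MDA5, and Rnf213 a large interferon-induced ubiquitin ligase. The Rnf213 run, over 115.4 kb, had the highest ratio of the 6, with 2200, 2353 and 2503 counts against 10911, 10565 and 9933 (4.45).

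The closed runs were shorter. At Igf1, insulin-like growth factor 1, 19 peaks over 34.4 kb closed and their summed counts fell from 1256, 1181 and 1573 to 274, 431 and 353, a ratio of 0.264. At Foxo3, a factor restrained by growth signals, 18 peaks over 51.8 kb went from 1352, 1319 and 1318 to 579, 672 and 690, a ratio of 0.487. The others were Cd84 and Slamf6, receptors of the SLAM family, with 16 peaks (ratio 0.344), Gm12353 with 15 (0.299), Inpp5d, the inositol phosphatase SHIP1, with 15 (0.329), and Stard9 with 15 (0.384). None of the summed counts overlapped between the groups. Called peaks with loess offsets and with total counts were 91 and 91 of 92 at Lass6 and Nostrin, 38 and 32 of 39 at Fndc3a, 16 and 18 of 18 at Foxo3, 12 and 15 of 15 at Inpp5d, and 13 and 15 of 15 at Stard9. Since runs were picked by their calls, these ratios and the lack of overlap describe them and test nothing.

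**Figure D4:**
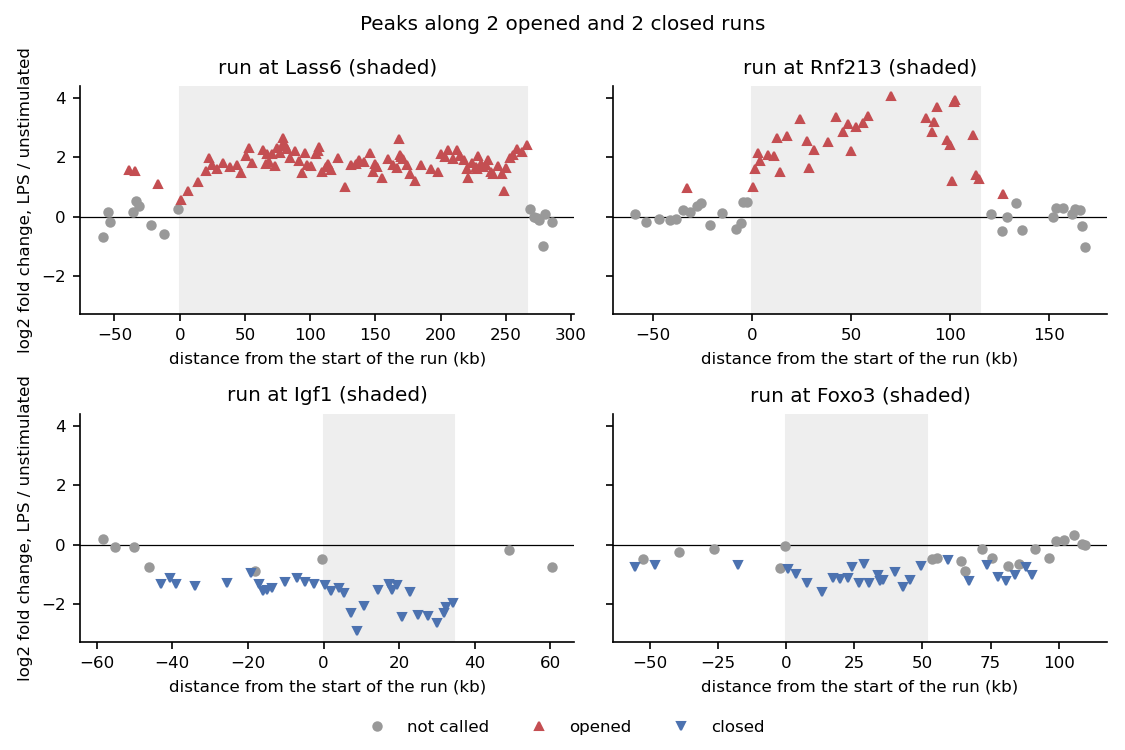
Log2 fold change (LPS over unstimulated) of each tested peak against its distance in kb from the start of 2 opened runs (Lass6, Rnf213) and 2 closed runs (Igf1, Foxo3), with the run shaded. All peaks in the shaded stretches lie on the same side of 0 and were called, while peaks outside include uncalled ones around 0, and further closed peaks flank the Igf1 and Foxo3 runs.

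The letters of AP-1, kappaB and ISRE/IRF sites were more frequent in opened than in closed distal peaks. They were searched on both strands in the central 500 bases. The AP-1 site TGANTCA was found in 19.3% of all 157564 distal peaks, in 24.9% of the opened and in 15.7% of the closed ones. The kappaB letters GGGANTTCC or GGGANTTTC were in 3.91%, 6.61% and 3.18%, and the ISRE/IRF letters GAAANNGAA in 16.8%, 22.8% and 14.1%. PU.1 letters (GAGGAAGT) were slightly more frequent in closed peaks, at 6.98%, 6.22% and 7.97%, and over whole peaks the order turned to 15.6% of opened and 14.8% of closed. C/EBP letters (TTGCNNAA) were in 20.5%, 22.2% and 20.9%. The E-box TCACGTGA of MITF and TFE factors, which include the lysosomal regulators, was rare, in 0.362% of all, 0.302% of opened and 0.438% of closed peaks. With loess offsets the opened and closed shares were 25.5% and 16.4% for AP-1, 6.79% and 3.17% for kappaB, 23.2% and 14.4% for ISRE/IRF and 5.81% and 8.26% for PU.1. The motifs overlap in part, since an ISRE/IRF match can hold letters of an ETS site, and a match is a run of letters and not a bound factor. Median GC content was 46.8% in distal peaks closed by 0.5 to 1, 45.6% in uncalled ones and 43.8% in those opened by 1 to 2. The part of base composition in the motif shares was not tested.

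For ISRE/IRF, AP-1, kappaB and, less steeply, C/EBP letters, opening was more frequent the more matches a peak held. With no, 1, 2 or at least 3 ISRE/IRF matches, 10.3%, 13.8%, 19.5% and 40.2% of distal peaks opened and 11.4%, 9.55%, 8.02% and 2.66% closed. The last class held 639 peaks. For the AP-1 site the opened shares were 10.4%, 13.4%, 19.1% and 33.8%, the last over 441 peaks, and for kappaB 10.8% with none, 18.1% with 1 and 30.8% with 2, the last over 273 peaks. For C/EBP they were 10.9%, 12.0%, 12.4% and 13.1%, the last over 411 peaks. For PU.1 they were 11.2%, 9.91% and 8.92% for none, 1 and 2, and 26.5% over the 34 peaks with at least 3. Peaks with both an AP-1 and a kappaB match opened in 24.3% of cases and those with kappaB and ISRE/IRF in 25.0%. Those with no AP-1, kappaB or ISRE/IRF match opened in 9.32%. Matches in repeated sequence were not set apart.

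**Figure D5:**
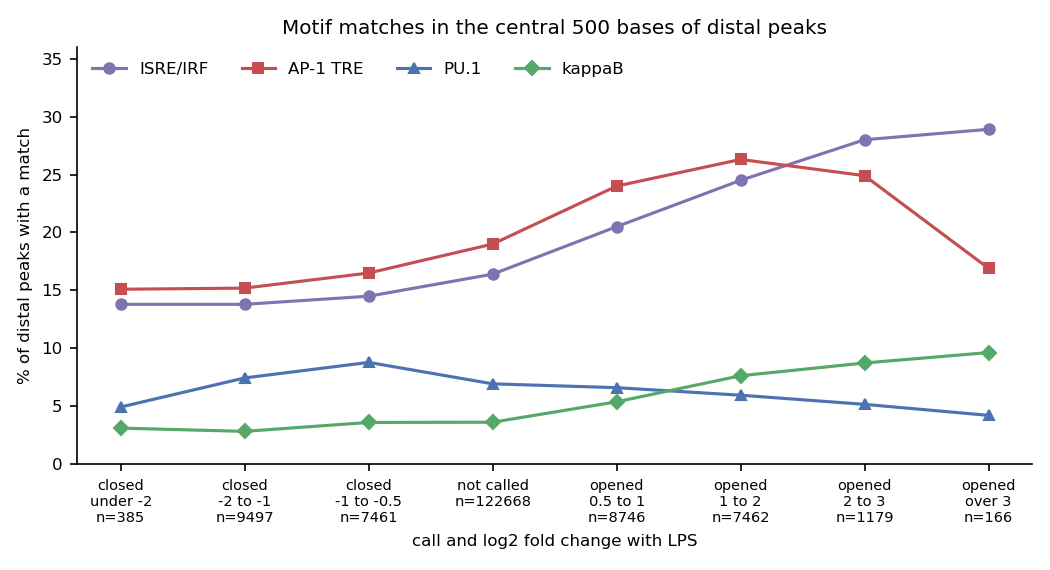
Percent of distal peaks with a match of each motif in the central 500 bases, by call and log2 fold change with LPS, with the number of peaks under each class. ISRE/IRF and kappaB shares rise from uncalled peaks to the largest rises, the AP-1 share peaks at 26.3% for log2 fold changes of 1 to 2, and the PU.1 share is highest, at 8.79%, in peaks closed by 0.5 to 1.

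The motifs also differed by size of change. Among uncalled distal peaks 16.4% held an ISRE/IRF match, and the share rose through 20.5%, 24.5% and 28.0% to 28.9% in the 166 peaks with a log2 fold change over 3. The kappaB share rose from 3.63% to 9.64%. AP-1 matches were in 19.0% of uncalled peaks, 26.3% of those with a log2 fold change of 1 to 2 and 16.9% of those over 3. PU.1 matches were in 8.79% of peaks closed by 0.5 to 1 and in 7.45% of those closed by 1 to 2. In the 385 peaks closed by more than 2 the share was 4.94%, against 6.94% of uncalled peaks and 4.22% of the largest rises. In promoter peaks AP-1 letters were in 13.7% of opened and 12.1% of closed peaks with TMM, kappaB in 5.38% and 2.60%, and ISRE/IRF in 17.3% and 12.0%. With loess offsets these shares were 18.9% and 12.1%, 5.79% and 2.71%, and 22.8% and 12.1%. KLF/SP letters (GGGGCGGGG) were in 10.6% and 2.52% with TMM. Of the promoter peaks with KLF/SP letters 19.1% opened with TMM and 3.18% with loess offsets.

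Whether the LPS effect depended on treatment was tested at the 5 largest rises and 5 largest falls, as the difference between the LPS effect within cells given (+)-JQ1 (500 nM) or IL-10 (10 ng/mL) and the effect without them. Over all tested peaks this difference passed an adjusted p of 0.05 at 3.84% with (+)-JQ1 and 7.91% with IL-10. At the exonic Il1b peak the LPS log2 fold change was 4.83 (SE 0.24) without treatment, 1.70 (SE 0.28) within (+)-JQ1 and 2.60 (SE 0.21) within IL-10. The Zfp36l1 peak changed by -2.71 (SE 0.17) without treatment, -1.34 (SE 0.16) within (+)-JQ1 and -2.47 (SE 0.16) within IL-10, and its difference passed with (+)-JQ1 (edgeR adjusted p = 8.2e-05) and not with IL-10 (edgeR adjusted p = 0.59). These peaks were picked for the untreated LPS effect, which is a term of the difference, so their number is not set against the shares above.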

How the data were processed

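ATAC-seq was measured in 18 libraries of Il10-/- macrophages, of which the 3 LPS and 3 unstimulated ones are compared. Per the paper's methods, the authors processed reads with PEPATAC, aligned them to mm9 with Bowtie2, called peaks with MACS2 per sample, merged them and classed them with ChIPseeker. The deposited values are raw counts per peak. The counting tool and any shift of reads for the transposase are not given in the sources used here. The promoter and distal tables repeat the union table, and 6 columns of per-sample values matched no sample and were not used. The smallest difference between peak ends and starts is that of a 0-based format, so 1 was added to each start.

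Counts were fitted with edgeR 4.0.16 (R 4.3.3, limma 3.58.1; glmQLFit, TMM, filterByExpr) over 18 libraries with a term per group. The contrast was LPS minus unstimulated, and Benjamini-Hochberg adjustment ran over all tested peaks. Normalized counts are counts scaled to the mean effective library size. Depth is given in the report, and p-values and SEs cover the spread between the 3 libraries of a group. Nothing in the sources used here ties a replicate number to a mouse, so the fit has no block, and a replicate block was an alternative. Genes and exons came from the NCBIM37 annotation, which has the build of the files, and distances run from the centre of a peak to a coding TSS. CpG ratio is observed over expected CpG. The fit was tested on simulated data.

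Named peaks were the 10 largest rises and falls among called peaks with a mean of at least 50 normalized counts and 1 direction in all 3 same-numbered pairs, the leading peak under these conditions of up to 4 rising and 3 falling members of each gene list with its promoter peak, the 8 genes with most opened and closed peaks, the 6 longest runs each way, and Il10. Other list members are given by their counts of called peaks and were chosen after these were seen. Members, lists and motifs were chosen with earlier results of these data known. Lists are described without set tests. Alternatives were DESeq2 1.42.0, other scalings, filters and thresholds, lane, 6 libraries alone, separate promoter and distal fits, 10 and 100 kb windows, whole peaks for motifs, and each library left out. Some members of the gene lists are counted in them and not reported here by name. Figures and summaries used Python 3.11.15 with pandas 2.3.3, NumPy 2.4.6 and matplotlib 3.10.9.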

Additional observations from a re-analysis of the deposited data

Results flagged for a closer look

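The LPS effect in treated cells was set against that in untreated cells at the 5 largest rises and the 5 largest falls, by edgeR's quasi-likelihood test of the difference itself with adjustment over all tested peaks, of which 3.84% passed with (+)-JQ1 and 7.91% with IL-10. The peaks were chosen for the untreated LPS effect, which is a term of each difference, so the values describe these peaks and their number is not read against those shares. Differences are log2 fold changes within treated cells minus those without treatment, so a negative value at an opened peak is a smaller rise.

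At the exonic Ccl5 peak the difference was -1.61 with (+)-JQ1 (SE 0.42, edgeR adjusted p = 0.016; 0.056 with DESeq2) and -1.84 with IL-10 (SE 0.39, edgeR adjusted p = 0.00065). The Ccl5 promoter differed by -1.17 with IL-10 (SE 0.32, edgeR adjusted p = 0.011), and its difference with (+)-JQ1 was -0.59 (SE 0.34, edgeR adjusted p = 0.38). At Mrpl39 the difference with IL-10 was -1.92 (SE 0.48, edgeR adjusted p = 0.0042) and that with (+)-JQ1 -1.38 (SE 0.44, edgeR adjusted p = 0.054; 0.028 with the replicate block). The Il1b peak 8038 bp from the TSS had the largest differences, -3.45 with (+)-JQ1 (SE 0.47, edgeR adjusted p = 1.3e-06) and -2.54 with IL-10 (SE 0.39, edgeR adjusted p = 3.2e-06), and the exonic Il1b peak had -3.12 and -2.23.

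Among the closed peaks, the Gpnmb fall was smaller by 1.26 with (+)-JQ1 (SE 0.28, edgeR adjusted p = 0.0046), the Cd300lb fall by 1.24 with (+)-JQ1 and 1.43 with IL-10, the Zfp36l1 fall by 1.38 with (+)-JQ1 and the Ccnj fall by 1.97 with (+)-JQ1 and 1.86 with IL-10. With IL-10 the Gpnmb difference was 0.78 (SE 0.28, edgeR adjusted p = 0.07; 0.0068 with total counts) and the Zfp36l1 difference 0.25 (SE 0.23, edgeR adjusted p = 0.59). The Gramd4 difference was 0.99 with (+)-JQ1 (SE 0.39, edgeR adjusted p = 0.16) and 0.47 with IL-10 (SE 0.37, edgeR adjusted p = 0.51).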

How the results depend on the processing

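Opened and closed promoter peaks and opened and closed distal peaks numbered 5237, 2459, 17553 and 17343. They were 2162, 5361, 10623 and 32210 with total counts in peaks and 1317, 966, 8807 and 9882 with a log2 fold change above 1. Opened promoters were 2592 with loess offsets, 3461 with at least 10 counts in every library and 2599 with separate promoter and distal fits, in which closed promoters were 4522. At an adjusted p under 0.01, closed promoters were 1445 and closed distal peaks 8845. Leaving out 1 library gave 3458 to 8776 opened promoters (the ends without unstimulated replicate 1 and without unstimulated replicate 3), 1940 to 2443 closed promoters, 14807 to 17696 opened and 12188 to 17121 closed distal peaks. With the replicate block the numbers were 5279, 2438, 17564 and 17185, and the block moved the call of 2 named peaks or differences. Deviations of same-numbered unstimulated and LPS libraries from their group means correlated at 0.0083, 0.0096 and -0.0219, and those of the other pairs at -0.0233 to 0.013. With 3 libraries per group these correlations cannot show whether a shared number means a shared mouse. DESeq2, its size factors in edgeR, lane as a covariate, no filter and 6 libraries alone left all 4 within 1.5 times. No called change reversed. Of 44 counts of called peaks by gene list, a window of 10 kb moved 38 and one of 100 kb moved 42 by more than 1.5 times. A window of another size holds another number of peaks, so these moves do not test the shares. At inflammatory cytokine genes 53.2% of 186 peaks opened within 10 kb, 51.1% of 358 within 25 kb and 34.6% of 994 within 100 kb. At lysosomal genes 11.9%, 16.0% and 12.0% of peaks closed in these windows. Of 154 named changed peaks, 149 were called with total counts and 149 with loess offsets. The cause of the shifts with scaling was not tested.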

Other observations

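Chromosome X took 1.18%, 1.28% and 1.40% of the counts of the unstimulated libraries 1, 2 and 3 and 1.40%, 1.39% and 1.37% of the LPS libraries. Among the X-linked peaks 16.7% opened and 4.96% closed, with a median log2 fold change of 0.20. The X-linked genes among the lists include Cybb, the oxidase subunit of phagocytes, with 4 of 5 peaks opened, and Gpr34, a lysophospholipid receptor, with 3 of 11 closed.

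Summed over all tested peaks, TMM-normalized counts were 15111492, 16317114 and 18103267 in the unstimulated and 19932707, 19146421 and 18920039 in the LPS libraries. The share of counts in promoter peaks was 40.8%, 42.8% and 45.5% in the unstimulated and 47.0%, 45.4% and 45.2% in the LPS libraries. Unstimulated replicate 1 had the lowest value in each of these.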
